A study of Homo sapiens with 6 samples.

Results

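Semaphorins, plexins and neuropilins are the genes of a guidance system that steers growing axons. 10 of them were followed here, picked by symbol as guidance cues and receptors: the semaphorins SEMA3A, SEMA3B, SEMA3C, SEMA3F and SEMA5A, the plexins PLXNA1, PLXNA2 and PLXND1, and the neuropilins NRP1 and NRP2. All 10 were found among the 17081 genes of the count table, and 9 had enough reads to be tested between groups. PLXNA2 did not pass the filter on low counts.

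The RNA came from tumours grown from DMS114 cells in a model of invasion of the sciatic nerve. DMS114 is an established line of human small cell lung cancer. The groups were distal tumour tissue and proximal tumour tissue, 3 libraries each, which the labels set apart by the invaded region the piece came from. No treatment, genotype, time or host animal is given for either group, and the labels do not tie the pieces to animals. The p-values therefore reflect only how far these samples differ among themselves, and that spread may be technical. Poly(A) RNA was sequenced, and the deposited table gives read counts per gene, with 16171106 counts in the smallest library and 26116191 in the largest. No pair of libraries was as close as sampling noise allows. Distal 3, the smallest library, stood apart: its chi-square per degree of freedom against each other library was 40.5 to 47.2, beside 5.63 to 25.6 among the other 5. It also held the most skeletal muscle transcripts, so fold changes that moved by over 1.5 times or changed sign when it was left out are also given without it.

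Semaphorins are secreted or membrane-bound ligands. Plexins are their signalling receptors, whose inner part acts on small GTPases and so on the cytoskeleton of a growth cone or a migrating cell. Most secreted semaphorins, those of class 3, cannot hold a plexin firmly by themselves and need a neuropilin, which has no enzyme activity of its own, as a partner on the receiving cell. Peripheral nerve is a classical setting of this system, since SEMA3A repels sensory and sympathetic axons that carry NRP1. SEMA3B and SEMA3F lie near each other in a region of chromosome 3 that is often lost in lung cancers.

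RNA of SEMA3C and SEMA3A was more abundant per kilobase than RNA of any plexin or neuropilin. Expression is given as CPM (counts scaled to library size) and, for comparing genes, as CPM per kilobase of exon, with the exons of all transcripts of a gene in GENCODE 29 merged. On the per-kilobase level over 6 libraries, SEMA3C stood first among the 31 semaphorin, plexin and neuropilin genes of the table at 214 ± 39.0 (SD, n = 6). SEMA3A had 39.2 ± 10.2, with 23.6 in its lowest library. PLXNB2, the highest of all the receptors, had 15.7 ± 2.13, with 19.5 in its highest library, and PLXNA1, the highest receptor among the 10 genes, 7.82 ± 0.665. SEMA3F had 1.35 ± 0.226, SEMA3B 1.24 ± 0.433, SEMA5A 1.00 ± 0.449 and PLXND1 0.604 ± 0.167. NRP1 came to 0.394 ± 0.207, NRP2 to 0.0957 ± 0.0462 and PLXNA2, the last of all 31, to 0.0258 ± 0.0151 CPM per kilobase. The library ranges of SEMA3C, SEMA3A and PLXNA1 did not touch those of the next member below, and neither did those of NRP1 and NRP2. From SEMA3F down to NRP1 each member overlapped the next, as did NRP2 and PLXNA2.

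**Figure D1:**
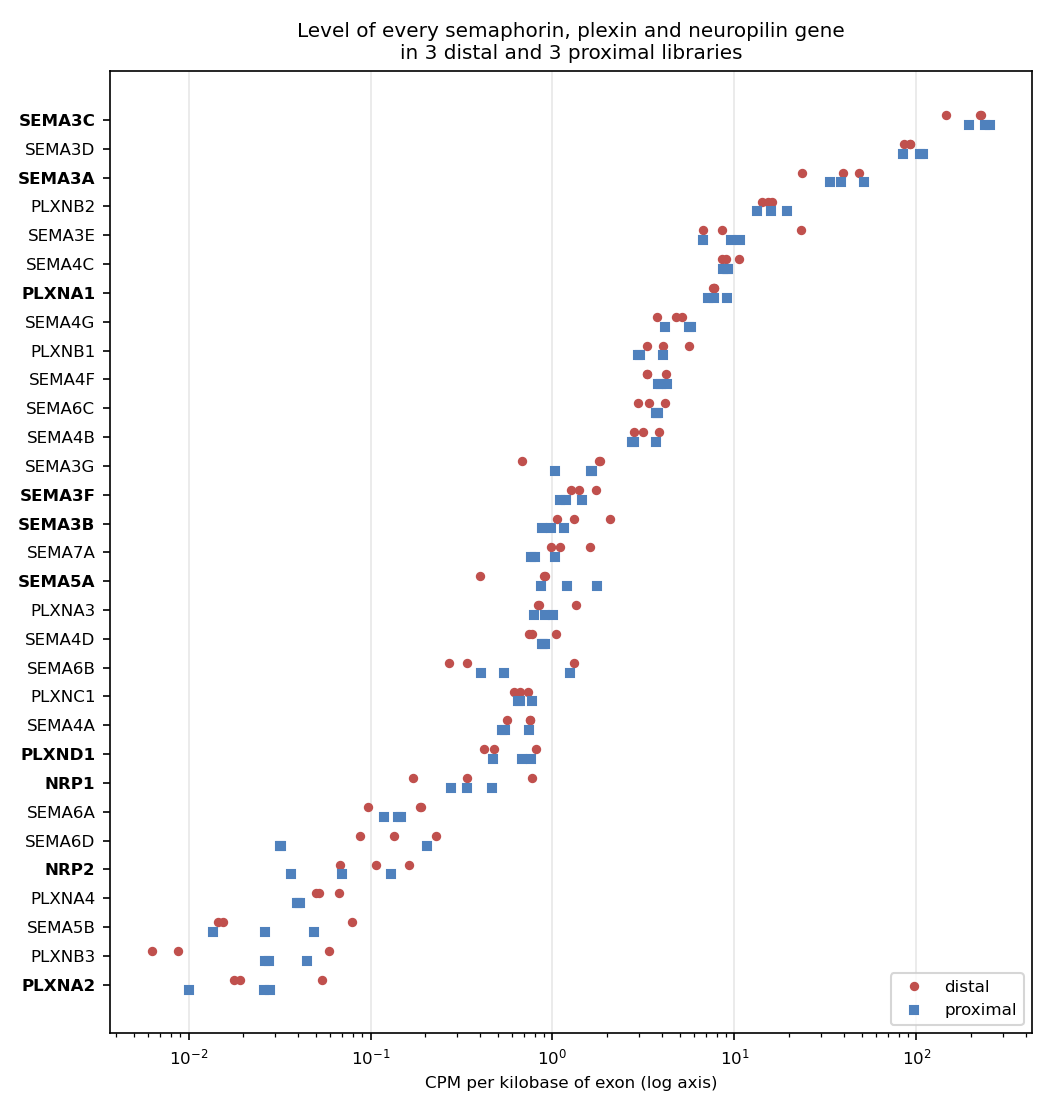
CPM per kilobase of exon (log axis) of all 31 semaphorin, plexin and neuropilin genes, with 1 point for each of 3 distal and 3 proximal libraries and the 10 genes described here in bold. SEMA3C, SEMA3D and SEMA3A lie above every receptor, while NRP2 and PLXNA2 are among the lowest genes and NRP1 ranks 24 of the 31.

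The highest cues, SEMA3C, SEMA3D and SEMA3A, lie in the same region of chromosome 7. SEMA3E, between SEMA3C and SEMA3A, was lower, at 10.9 CPM per kilobase. SEMA3C (80742538 to 80922389), SEMA3E (83363238 to 83649139), SEMA3A (83955777 to 84492725) and SEMA3D (84995553 to 85250243) all lie on the minus strand of chromosome 7 in GRCh38. These 4 genes took 93.5%, 92.6% and 89.9% of all semaphorin counts in the distal libraries and 93.9%, 93.1% and 90.9% in the proximal ones. SEMA3C alone took 49.3%, 50.5% and 40.6% in distal and 49.1%, 50.1% and 48.9% in proximal tumour, so distal 3 was the library with the smallest part of both. SEMA3F (50155058 to 50189075) and SEMA3B (50260226 to 50277546) lie closer together, on the plus strand of chromosome 3. They were read at a level of about the same size as each other, with SEMA3F to SEMA3B count ratios of 0.895, 1.007 and 0.699 in distal and 0.932, 1.37 and 0.858 in proximal libraries.

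The bases just before the start of 4 genes are shown. SEMA3C had the highest level, SEMA3B and SEMA5A had the lowest p between the regions, and SEMA3F lies near SEMA3B. The stretches come from RefSeq (GRCh38.p14), from the 250 bases before the most upstream start listed for the gene, cut to the part outside GENCODE 29 exons. Each runs 5′ to 3′ on the strand of its gene, and capitals mark matches, on either strand, to GGGCGG (the GC box core) and CCAAT.
SEMA3C, chr7:80922390-80922639, minus strand: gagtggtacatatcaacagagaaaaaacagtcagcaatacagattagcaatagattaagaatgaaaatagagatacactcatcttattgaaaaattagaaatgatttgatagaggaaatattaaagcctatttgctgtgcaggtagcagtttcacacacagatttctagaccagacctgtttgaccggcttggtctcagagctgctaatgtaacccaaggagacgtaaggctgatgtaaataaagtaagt
SEMA5A, chr5:9546076-9546199, minus strand: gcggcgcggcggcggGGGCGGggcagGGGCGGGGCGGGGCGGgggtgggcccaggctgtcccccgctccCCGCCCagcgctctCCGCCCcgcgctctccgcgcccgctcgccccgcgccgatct
SEMA3B, chr3:50259976-50260225, plus strand: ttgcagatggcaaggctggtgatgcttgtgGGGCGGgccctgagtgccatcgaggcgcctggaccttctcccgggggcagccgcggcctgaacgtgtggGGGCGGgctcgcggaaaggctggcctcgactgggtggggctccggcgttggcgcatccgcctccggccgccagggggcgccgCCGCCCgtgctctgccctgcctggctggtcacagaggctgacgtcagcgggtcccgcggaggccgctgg
SEMA3F, chr3:50154808-50155044, plus strand: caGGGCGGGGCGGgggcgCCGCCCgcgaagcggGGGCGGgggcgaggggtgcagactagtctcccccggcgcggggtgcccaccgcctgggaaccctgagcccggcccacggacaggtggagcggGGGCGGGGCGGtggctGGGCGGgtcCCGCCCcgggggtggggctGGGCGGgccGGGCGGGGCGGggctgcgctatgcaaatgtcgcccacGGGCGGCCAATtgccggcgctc

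The SEMA3C window shown differed in composition from the other 3, but the window at its other RefSeq start did not. In the full 250 bases G and C made up 36.4% in SEMA3C, 82% in SEMA5A, 74.4% in SEMA3B and 82% in SEMA3F, against a median of 58% over 35116 RefSeq windows of that length. SEMA3C had 2 CpG pairs, SEMA5A 33, SEMA3B 26 and SEMA3F 34, against a median of 11. In the full 250 bases GGGCGG matched 0 times in the SEMA3C window shown, 7 times in SEMA5A, 3 times in SEMA3B and 12 times in SEMA3F, counting matches that overlap each other in runs, and 42.6% of all windows hold it. Not all 7 matches of SEMA5A lie in the stretch printed. At the other SEMA3C start, chr7:80919052-80919301 on the minus strand, which lies wholly in GENCODE exons, G and C made up 77.6%, with 39 CpG pairs and 3 matches to GGGCGG. That motif was in at least 1 window of each of the 8 members that had a window. The set of windows used held none for SEMA3A or NRP1. CCAAT was found in SEMA3F only of these 4 windows (32% of all windows). TATAAA (10.7% of windows), CACGTG (6.34%) and GGAATG, the core bound by the TEAD partners of YAP1 (11.9%), were in none of the 4 windows. GGAATG was however in 2 windows at other starts of SEMA3B and in 1 of SEMA3F, and CCAAT in 1 at another start of SEMA3B. SEMA3B has 5 RefSeq starts, SEMA3F 3 and SEMA3C 2, and which of them these tumours used is not known from the counts. The RefSeq starts behind the SEMA3C and SEMA3B windows shown lie in no GENCODE transcript. Those of SEMA5A and SEMA3F do, as do the other starts of SEMA3C and SEMA3B.

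None of the members was called different between the regions, and the ranges of the groups overlapped for each of the 9 tested ones. The edgeR quasi-likelihood test, adjusted after Benjamini and Hochberg, called 0 of 13382 genes (0%), and the adjusted p was 0.9997 for each of the 9 members. An unadjusted p under 0.05 was reached by 178 genes (1.33%) and by 0 of the 9 members. DESeq2 called 1 gene, EDIL3, which is no semaphorin gene. The groups did not overlap for 6.28% of the tested genes and for 0 of the 9 members. Of the 9 members 4 had higher and 5 lower values in distal tumour, with a median log2 fold change of -0.06, beside 0.00 over all tested genes.

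**Figure D2:**
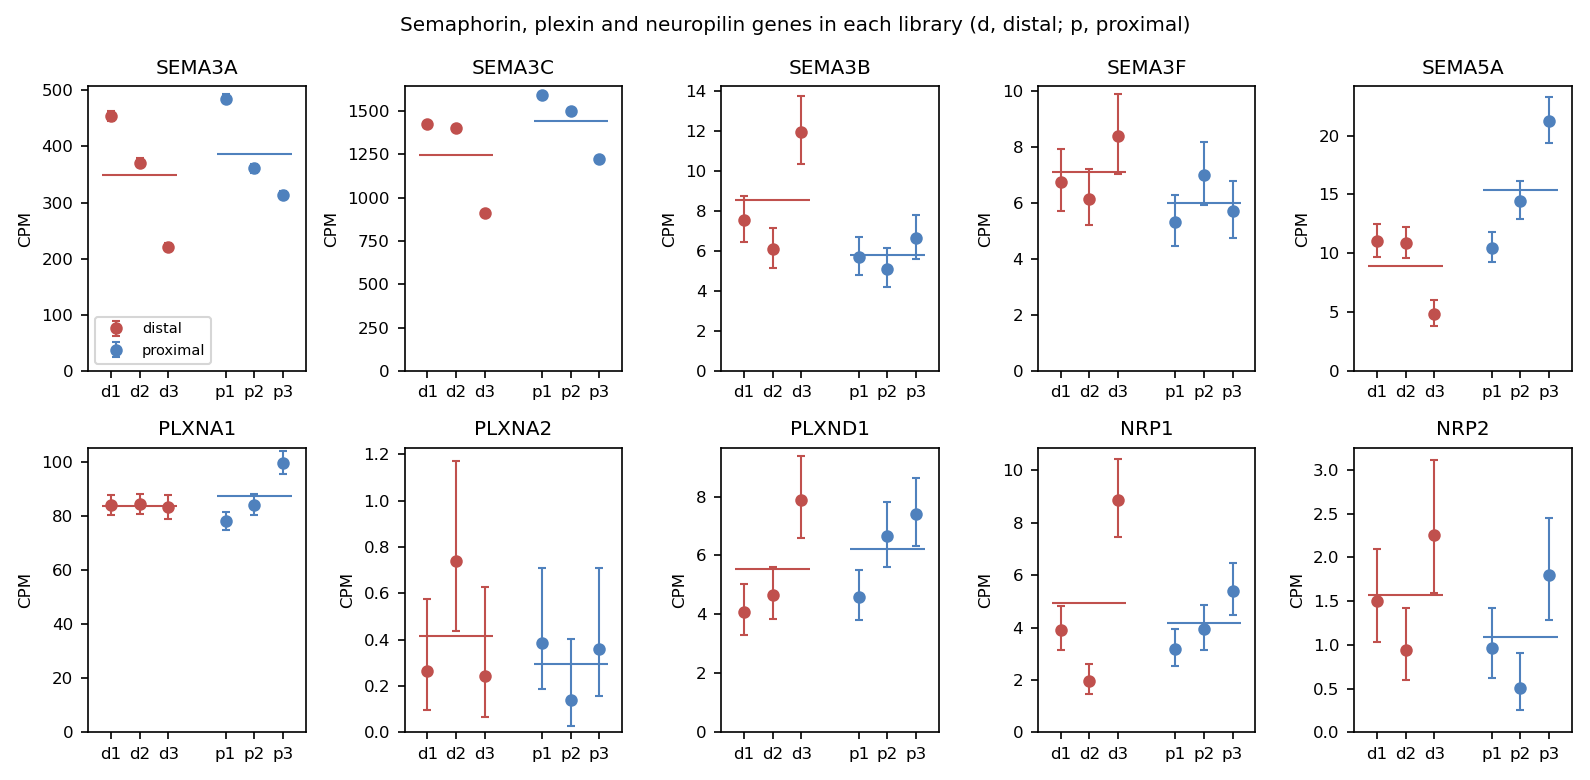
CPM of each of the 10 genes in the 3 distal (d1 to d3) and 3 proximal (p1 to p3) libraries. Points are single libraries, bars their 95% Poisson interval (counting error only) and lines the mean of the region. In 8 of the 9 tested genes d3 is the highest or the lowest library.

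Of the secreted cues, SEMA3C, which signals through either neuropilin and is known to promote migration of several tumour types, had 1423, 1405 and 910.4 CPM in distal libraries, against 1593, 1502 and 1224 CPM in proximal ones. The third library was the lowest of each region, and the ranges overlapped. Means were 1246 ± 291 CPM in distal and 1440.0 ± 192 CPM in proximal tumour (SD, n = 3 each). This is a log2 fold change of -0.21 (SE 0.18, 95% interval -0.62 to 0.21), which was -0.026 without distal 3. SEMA3A, which repels axons through NRP1 with a class A plexin, had 454, 371 and 221 CPM in distal libraries, against 485, 361 and 314 CPM in proximal ones. It was highest and lowest in the same libraries as SEMA3C, proximal 1 and distal 3. Its means of 349 ± 118 CPM in distal and 387 ± 88.5 CPM in proximal tumour gave a log2 fold change of -0.15 (SE 0.31, 95% interval -0.92 to 0.63), which was 0.09 without distal 3 and 0.04 without proximal 1. The SEMA3C to SEMA3A count ratio stayed between 3.13 and 4.16 over the 6 libraries.

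SEMA3B, a secreted cue that slows the growth of lung cancer cells when put back into them, had 7.53, 6.10 and 12.0 CPM in distal libraries, against 5.69, 5.08 and 6.65 CPM in proximal ones. Distal 3 stood above the other 5: its Poisson interval, 10.4 to 13.8 CPM, began above the next highest one, that of distal 1, which ended at 8.75 CPM. Distal 2 lay inside the proximal range. The means were 8.53 ± 3.06 CPM in distal and 5.80 ± 0.790 CPM in proximal tumour (SD, n = 3 each). SEMA3B thus had a log2 fold change of 0.55 (SE 0.26, 95% interval -0.03 to 1.13), with an unadjusted p of 0.0603 by edgeR's quasi-likelihood test, the lowest of the members. An exact two-sided permutation test over the 6 libraries on log2(CPM + 0.1) gave p = 0.2, where 3 against 3 cannot give less than 0.1. Without distal 3 its log2 fold change was 0.23, and with any other library left out it lay between 0.46 and 0.74.

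SEMA3F, which prefers NRP2 as its partner, had 6.74, 6.14 and 8.37 CPM in distal libraries, against 5.30, 6.97 and 5.70 CPM in proximal ones. It too was highest in distal 3, though by less than SEMA3B. The means of 7.08 ± 1.15 CPM in distal and 5.99 ± 0.873 CPM in proximal tumour gave a log2 fold change of 0.24 (SE 0.21, 95% interval -0.22 to 0.70), or 0.11 without distal 3. In GENCODE 29, SEMA3F shares 110 exon bases with an antisense gene, and SEMA5A 436, NRP1 561 and NRP2 147 with others. The strand setting of the counting is not given in the sources used here, so reads of these partners could be part of the counts.

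SEMA5A, a membrane-bound cue with thrombospondin repeats, varied most among the 5 semaphorins followed here. It had 11.02, 10.9 and 4.82 CPM in distal libraries, against 10.4, 14.5 and 21.2 CPM in proximal ones. Its lowest and its highest library were both numbered 3, distal 3 and proximal 3, and proximal 1 lay inside the distal range. Distal 3 had a Poisson interval of 3.82 to 6.01 CPM, and no other library's interval began below 9.24 CPM. Means were 8.91 ± 3.54 CPM in distal and 15.4 ± 5.46 CPM in proximal tumour (SD, n = 3 each). SEMA5A had a log2 fold change of -0.78 (SE 0.37, 95% interval -1.66 to 0.11), the largest in size among the tested members, with an unadjusted p of 0.0759 by edgeR's quasi-likelihood test. With DESeq2 its p was 0.0123 before and 0.9996 after adjustment. Permuting the library labels exactly, two-sided, gave p = 0.3. Without distal 3 the log2 fold change was -0.49, without proximal 3 it was -0.48, and without both it was -0.18.

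**Figure D3:**
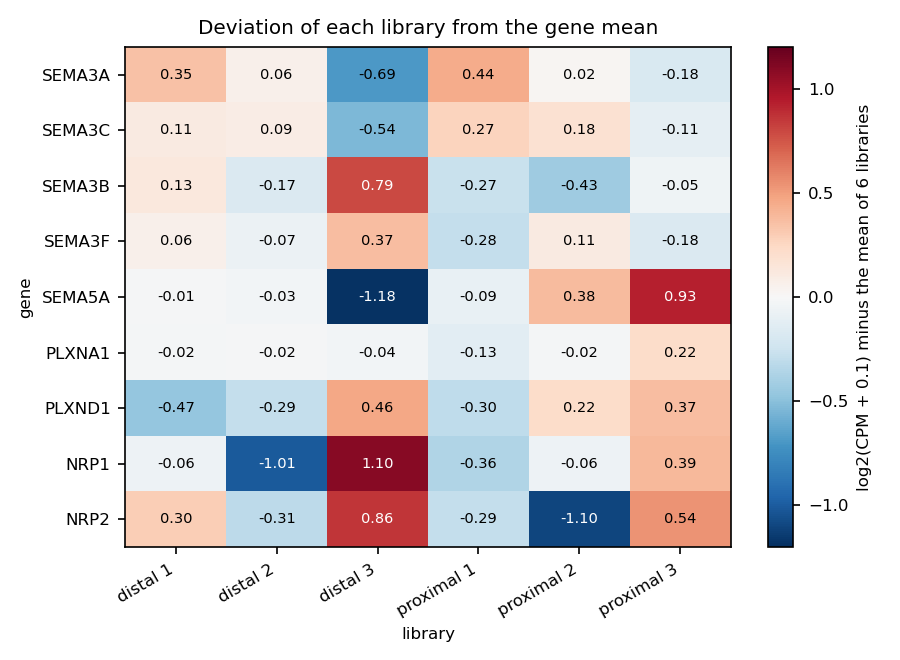
Difference of log2(CPM + 0.1) in each library from the mean of the 6 libraries, for the 9 tested genes. Distal 3 holds the lowest value for SEMA3A, SEMA3C and SEMA5A and the highest for SEMA3B, SEMA3F, PLXND1, NRP1 and NRP2, while the PLXNA1 row is nearly flat.

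Of the receptors among the 10 genes PLXNA1 varied least between libraries. This class A plexin is a signalling partner of both neuropilins. It had 84.0, 84.5 and 83.2 CPM in distal libraries, against 78.2, 84.1 and 99.7 CPM in proximal ones. The distal libraries lay within 2 CPM of each other and inside the proximal range, whose top was proximal 3. Means were 83.9 ± 0.661 CPM in distal and 87.3 ± 11.1 CPM in proximal tumour, a log2 fold change of -0.06 (SE 0.10, 95% interval -0.28 to 0.17), which was 0.05 without proximal 3. PLXNA1 was the only one of the 9 tested members whose interval lay within 1.5-fold in either direction, beside 9245 of all 13382 tested genes. Within 2-fold there were 5 of the 9 members and 11239 of all tested genes.

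PLXNA2, its close relative, had 6, 18 and 4 counts in the distal libraries, against 10, 3 and 8 counts in the proximal ones, or at most 0.742 CPM. Distal 2 held the most and proximal 2 the fewest, and the ranges overlapped. With no filter on low counts its log2 fold change was 0.50 at an unadjusted p of 0.505 by edgeR's quasi-likelihood test. PLXND1, best known as the receptor of SEMA3E on blood vessels, had 4.10, 4.66 and 7.88 CPM in distal libraries, against 4.60, 6.65 and 7.41 CPM in proximal ones. Distal 3 was highest and proximal 3 next. The means of 5.54 ± 2.04 CPM in distal and 6.22 ± 1.45 CPM in proximal tumour gave a log2 fold change of -0.17 (SE 0.29, 95% interval -0.82 to 0.47), which ran from -0.50 without distal 3 to 0.00071 without distal 1.

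The neuropilins were low in every library. NRP1, the partner of SEMA3A and also a co-receptor of VEGFA, had 3.92, 1.98 and 8.85 CPM in distal libraries, against 3.17, 3.93 and 5.39 CPM in proximal ones. The distal libraries held both the lowest and the highest value, and distal 3 stood apart, with a Poisson interval of 7.47 to 10.4 CPM where no other library's interval went above 6.44 CPM. Means were 4.92 ± 3.54 CPM in distal and 4.16 ± 1.13 CPM in proximal tumour. Its log2 fold change of 0.23 (SE 0.51, 95% interval -0.96 to 1.41) turned to -0.50 without distal 3. NRP2, the partner of SEMA3F, had 1.498, 0.948 and 2.26 CPM in distal libraries, against 0.967, 0.508 and 1.80 CPM in proximal ones. The third library was the highest of each region, and the ranges overlapped. The means of 1.57 ± 0.659 CPM in distal and 1.09 ± 0.653 CPM in proximal tumour gave a log2 fold change of 0.51 (SE 0.51, 95% interval -0.63 to 1.65), with values from 0.16 without distal 3 to 1.06 without proximal 3.

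**Figure D4:**
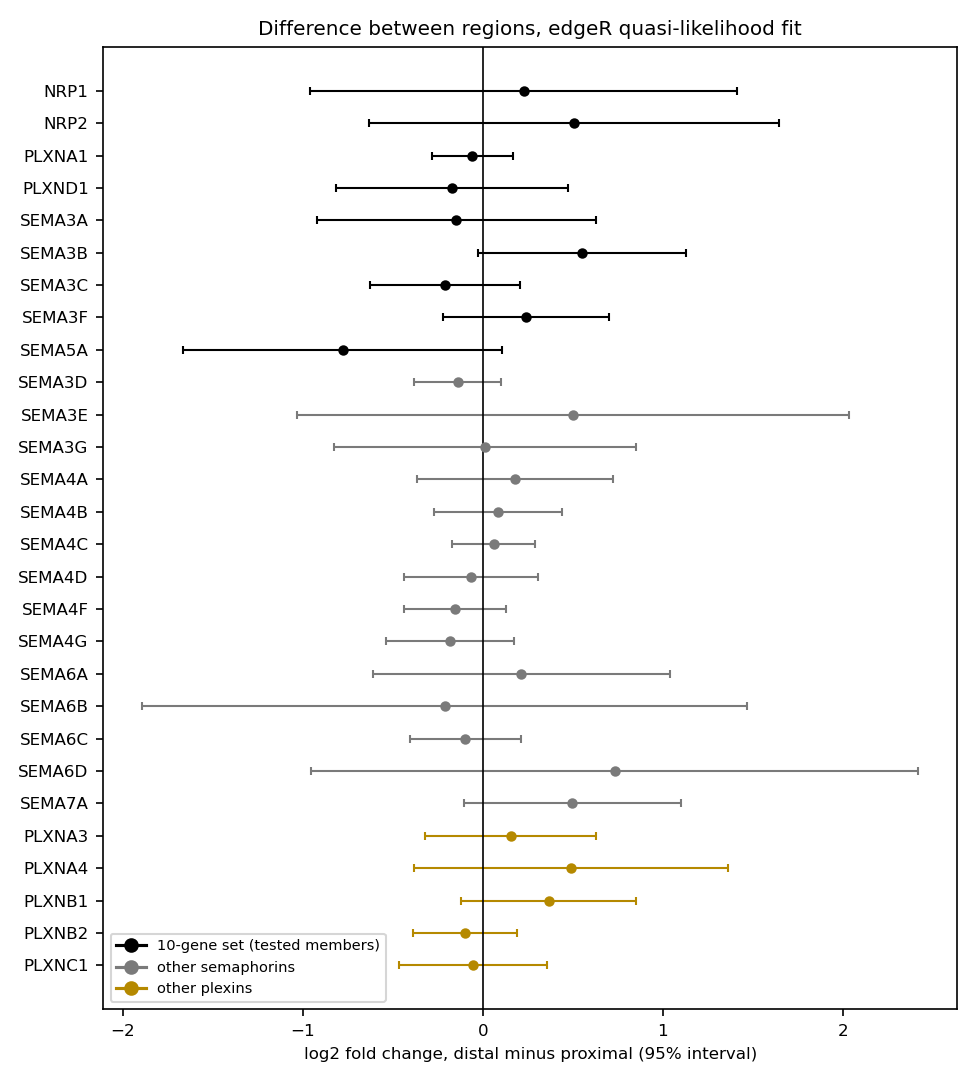
Log2 fold change, distal minus proximal, with its 95% interval from the edgeR quasi-likelihood fit, for the 9 tested members (black), 14 other semaphorins (grey) and 5 other plexins (ochre). Every interval crosses 0, and the intervals are widest for genes of low or uneven counts such as NRP1, SEMA3E and SEMA6D.

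Distal 3 was the library that most often stood apart in this family. It was the highest library for SEMA3B, SEMA3F, PLXND1, NRP1 and NRP2 and the lowest for SEMA3A, SEMA3C and SEMA5A, thus at an end of the range for 8 of the 9 tested members. Of all 13382 tested genes it was at an end for 52.3%, more than any other library (22.9% to 36.1%), so it stood apart across the whole table as well. Among the 19 other tested semaphorins and plexins it was the highest for 12 and the lowest for 2, beside 26.9% and 25.4% of all tested genes. Against the mean of distal 1 and distal 2, distal 3 held 3.00 times the NRP1, 1.85 times the NRP2, 1.76 times the SEMA3B and 1.80 times the PLXND1, but 0.536 times the SEMA3A, 0.644 times the SEMA3C and 0.441 times the SEMA5A. PLXNA1 was at 0.987 times. The biological coefficient of variation estimated by edgeR, the spread beyond counting error, had a median of 0.263 over the 9 members and 0.145 over all tested genes. It was 0.440 for NRP1, 0.422 for NRP2, 0.331 for SEMA5A and 0.113 for PLXNA1.

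Genes listed as markers of other tissues differed between libraries as well. The 12 skeletal muscle markers summed to 4.71, 23.4 and 2117 CPM in the distal libraries, against 7.66, 34.2 and 308 CPM in the proximal ones, so distal 3 and proximal 3 were the highest of their regions. The 8 Schwann cell markers summed to 80.6, 124 and 76.1 CPM in distal, against 68.1, 63.5 and 158 CPM in proximal libraries. The 6 endothelial markers of the table summed to between 0.116 and 2.20 CPM and the 5 immune markers to between 0.696 and 5.68 CPM, each with the highest sum in distal 3, and PECAM1 had 0 counts in 5 of the libraries. The 6 fibroblast markers summed to 5594, 5505 and 4530 CPM in distal, against 6122, 5856 and 5409 CPM in proximal libraries, most of it COL3A1. COL1A1 did not follow that sum, with 16.04, 18.9 and 38.3 CPM in distal and 7.70, 18.6 and 62.2 CPM in proximal libraries, and like COL1A2 it was highest in the third library of each region. PDGFRA, on the same list, had at most 1.28 CPM. Which cells made COL3A1, DCN and LUM was not tested, so the sum is no measure of fibroblasts. Distal 3 also had the fewest counts. The part of these in the pattern of distal 3 was not tested, and in bulk tissue fewer cells of a type and less RNA per cell cannot be told apart. Of the 11 tumour markers YAP1, at 167 to 187 CPM, and SYP, at 56.9 to 63.9 CPM, were present in all libraries, while POU2F3 had at most 0.247 CPM and KRT8 at most 0.122 CPM. NEUROD1, a neuroendocrine regulator, had 6.47 CPM in distal 3 and at most 0.618 CPM elsewhere.

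**Figure D5:**
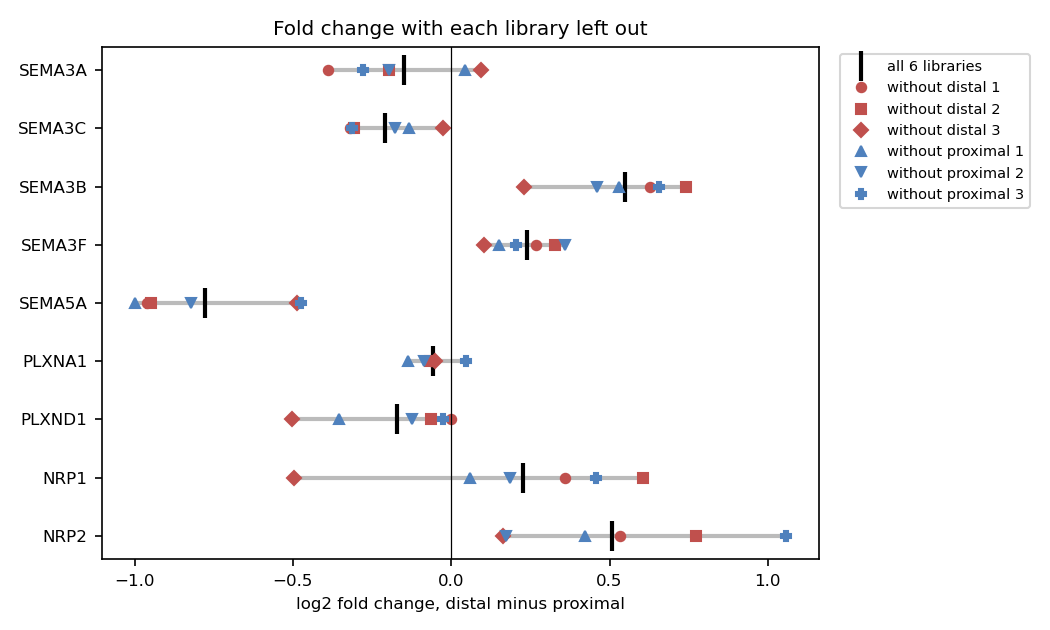
Log2 fold change, distal minus proximal, of the 9 tested genes with all 6 libraries (bar) and with each library left out (symbols). Leaving out distal 3 gives the value nearest to 0 for SEMA3C, SEMA3B, SEMA3F and NRP2 and moves SEMA3A and NRP1 past it, to 0.09 and -0.50.

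Of the other 15 semaphorins 14 were tested and 0 called, 8 with higher and 6 with lower values in distal tumour and a median log2 fold change of 0.04. Without distal 3 there were 5 higher and 9 lower. SEMA3D, a class 3 cue, had 727 ± 33.7 CPM in distal and 800.2 ± 106 CPM in proximal tumour. SEMA3E, the ligand that binds PLXND1 without a neuropilin, had 71.7, 56.7 and 194 CPM in distal libraries, against 89.9, 80.7 and 56.5 CPM in proximal ones. Distal 3 thus held both the most SEMA3E and the most PLXND1. The log2 fold change of SEMA3E was 0.50 (SE 0.57) and -0.24 without distal 3. SEMA4C, a membrane-bound class 4 cue, had 57.9 ± 6.70 CPM in distal and 55.5 ± 1.60 CPM in proximal tumour. SEMA7A, which is anchored in the membrane by a lipid and binds PLXNC1, had a log2 fold change of 0.50 (SE 0.27), or 0.26 without distal 3. SEMA4F was at -0.15 (SE 0.13), or -0.093 without distal 3, and SEMA4G at -0.18 (SE 0.16). SEMA4G shares 1170 exon bases with MRPL43 on the other strand, so its counts are uncertain.

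Of the other 6 plexins 5 were tested and 0 called, 3 higher and 2 lower in distal tumour, with a median of 0.16 that was -0.05 without distal 3. PLXNB2 was the plexin with the highest level, at 110.3 ± 6.84 CPM in distal and 118 ± 22.4 CPM in proximal tumour. PLXNB1, a receptor of SEMA4D, had 42.0 ± 11.5 CPM in distal and 32.6 ± 6.13 CPM in proximal tumour, a log2 fold change of 0.37 (SE 0.21), or 0.14 without distal 3. PLXNA3 was at 0.16 (SE 0.21), or -0.11 without distal 3. PLXNA4 had 1.10, 0.824 and 0.855 CPM in distal libraries, against 0.658, 0.646 and 0.674 CPM in proximal ones. Its groups did not overlap, but it was low and its log2 fold change of 0.49 (SE 0.39) had an adjusted p of 0.9997 by edgeR's quasi-likelihood test. PLXNB3, to which SEMA5A binds, had at most 0.412 CPM and was not tested. Together PLXNA1 and PLXNB2 took 78.1%, 76.5% and 68.4% of all plexin counts in distal and 77.2%, 81.05% and 76.0% in proximal libraries.

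By role, the summed level per kilobase of the 7 class 3 semaphorins was 381, 367 and 282 CPM per kilobase in distal libraries, against 429, 396 and 324 in proximal ones. That of both neuropilins was 0.448, 0.240 and 0.931 CPM per kilobase in distal, against 0.345, 0.377 and 0.597 in proximal libraries. Distal 3 thus had the lowest sum of the class 3 semaphorins and the highest sum of the neuropilins. SEMA3C alone made up 145 of the 282 CPM per kilobase in distal 3 and 227 of the 381 in distal 1. The class 3 genes did not move as 1: SEMA3A, SEMA3C and SEMA3G were lowest in distal 3, but SEMA3B, SEMA3E and SEMA3F were highest there. The sum of the 13 semaphorins of other classes went the other way from the class 3 sum, and was highest in distal 3. They had 25.5, 28.8 and 32.3 CPM per kilobase in distal, against 27.7, 29.8 and 31.5 in proximal libraries. The 5 class A and D plexins summed to 9.02, 9.14 and 9.83 CPM per kilobase in distal, against 8.60, 9.20 and 10.9 in proximal libraries.

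Genes that act below or beside the receptors did not pass the test. Of 31 listed signalling and co-receptor genes 29 were tested and 0 called, 5 with higher and 24 with lower values in distal tumour and a median log2 fold change of -0.09. The number with higher values was 3 without proximal 1, 11 without proximal 2, 9 without either proximal 3 or distal 1, and 10 without both distal 3 and proximal 3. GIPC1, which binds the inner tail of NRP1, had 57.9 ± 5.84 CPM in distal and 66.7 ± 0.253 CPM in proximal tumour, a log2 fold change of -0.20 (SE 0.10), or -0.13 without distal 3. GSK3B, a kinase that phosphorylates collapsin response mediators, was at -0.17 (SE 0.09), DPYSL4, which encodes such a mediator, at -0.23 (SE 0.13), and FURIN, which cleaves class 3 semaphorins, at -0.16 (SE 0.10). Of 8 VEGF ligands and receptors, which share the neuropilins, 4 were tested and 0 called, all 4 with higher values in distal tumour, but 2 of 4 without distal 3. VEGFA had 93.6 ± 12.4 CPM in distal and 88.5 ± 5.97 CPM in proximal tumour, and its log2 fold change of 0.08 (SE 0.11) was -0.03 without distal 3. VEGFB was at 0.13 (SE 0.10), PGF at 0.66 (SE 0.40) from low means of 1.91 CPM in distal and 1.21 CPM in proximal tumour, and FLT4 at 0.17 (SE 0.29), or -0.17 without distal 3. KDR, the main VEGFA receptor of endothelium, had at most 0.794 CPM and was not tested.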

How the data were processed

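The table that the authors deposited holds raw counts by gene symbol, not normalized, and all 6 value columns were used. The submitters' processing notes name GRCh38 as build and list Trimmomatic 0.39, STAR 2.7.3a and featureCounts 2.0.1, beside bcl2fastq and DESeq2. Which host and annotation were used, whether counting used strand, and what was done with host reads is not given in the sources used here. Some counts could thus include host reads.

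Counts were analysed in R 4.3.3 with edgeR 4.0.16: expression filter by group, TMM scaling, and the robust quasi-likelihood test of distal against proximal with Benjamini-Hochberg adjustment at 0.05 over 13382 genes. The SE is the absolute log2 fold change over the square root of F, and intervals are 95%. Poisson intervals cover counting error only. Exon lengths came from GENCODE 29 and positions from RefSeq, both on GRCh38. The annotation behind the counts may differ.

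Counts were simulated for distal against proximal (5 runs, 13273 to 13293 genes tested). On these the test called 34.9% of the genes set to differ by 1.5-fold, 68.2% at 2-fold and 90.1% at 4-fold. It called 50 of 65421 genes set not to differ. These rates are for genes of the whole table. The members had a median biological coefficient of variation of 0.263, beside 0.145 over all tested genes. The rates may thus be lower for the members. They may also be too high for these data, in which the smallest library stood apart across the whole table.

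The members and the gene lists were chosen with earlier results of these data known. All members were named. From each other list the text gives up to 4 genes with the lowest p, and for semaphorins and plexins also the 3 with the highest mean CPM. Other genes were named after their values were seen. Alternatives were RLE, upper-quartile and total-count scaling, other filters, DESeq2 1.42.0, limma-voom (limma 3.58.1), a replicate block and libraries left out. Figures were drawn with matplotlib 3.10.9. Results for some genes are not reported here.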

Additional observations from a re-analysis of the deposited data

How the results depend on the processing

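The count of members called was 0 under every alternative run. The count of all genes called was 0 except with DESeq2, where it was 1, and ranged from 0 to 1 with a library left out (1 without distal 1). The median log2 fold change of the members stayed between -0.09 and 0.05 with a library left out. NRP1 changed sign with limma-voom (-0.086) and without both distal 3 and proximal 3 (-0.27), and PLXNA1 without both (0.054). With a library left out, 4 members took both signs: NRP1 ran from -0.50 to 0.61, SEMA3A from -0.39 to 0.094, PLXND1 from -0.50 to 0.00071 and PLXNA1 from -0.14 to 0.048. The cause was not tested. The labels do not say whether the replicate numbers pair the samples, and the values do not settle it. The correlation of deviations was 0.36 for number 1, -0.11 for number 2 and 0.18 for number 3. Between unlike numbers it ran from -0.32 to 0.13. The replicate block called 0 genes and 0 members, with 286 genes at an unadjusted p under 0.05, SEMA3B and SEMA3C among them. Depth limits PLXNA2 and NRP2 most, at 3 to 40 counts a library. Counts of higher values without distal 3, proximal 3 or both were added after seeing the data.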

Other observations

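The genes whose log2(CPM + 0.1) followed the neuropilins most closely over the 6 libraries, out of 9584 tested genes averaging 10 CPM or more, were FAM171A2, SPAST and PGAP3 for NRP1 and ZNF281, KDSR and LLGL1 for NRP2. Their Pearson correlations were 0.995, 0.982 and 0.977 with NRP1 and 0.987, 0.985 and 0.984 with NRP2. With 6 points that share library and depth, high values can be met among so many genes. Of the 9584 genes, 100 reached 0.9 with NRP1 and 85 with NRP2. None of the 6 genes had a large range. FAM171A2, the closest, had 11.6, 9.89 and 14.5 CPM in distal libraries, against 10.9, 12.0 and 12.8 CPM in proximal ones. NRP1 itself spanned 4.48-fold from its lowest to its highest library, while FAM171A2 spanned 1.46-fold.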
